A study of Mus musculus with 6 samples.

Results

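Secreted and membrane proteins enter the endoplasmic reticulum (ER) through a translocation machinery and leave it in coated vesicles, and the genes of this early secretory pathway are described here in 266.6 cells, a mouse line derived from a pancreatic acinar tumour. The set was taken by gene symbol: rows beginning with Sec and a digit (leaving out Sec14 and pseudogene names), the coatomer genes named Copa to Copz, Sar1a and Sar1b, and the numbered Tmed, Ssr, Spcs and Srp genes with the SRP receptor. It held 60 of the 20596 rows with a gene symbol, and 58 of the 60 passed the filter on low values (3 or more libraries at 10 or above) and were tested. Rows entered the set by symbol and not by a measured value, but the set was chosen with earlier results of these data known.

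RNA was sequenced from 3 libraries of 266.6 cells labelled control and 3 labelled as treated with CAF-CM, medium conditioned by cancer-associated fibroblasts, for up to 40 days (called CAF_CM below). All 6 came from the same line, grown in DMEM with serum and antibiotics, and the labels name no edit that differs between the groups. As background, 266.6 came from a tumour driven by the SV40 T antigen under an elastase promoter, so it is a transformed stand-in for acinar cells, and 1 line. The conditioned medium is also written in the treatment text of the controls, and the groups were taken from the sample titles. The labels do not give the source of the fibroblasts or the time each library was exposed. Beyond that growth medium, they do not give what the controls received during the treatment, or their time in culture. The conditioned medium and time in culture therefore cannot be told apart. The labels do not say either that the 3 libraries of a group came from separate cultures. P-values thus rest on a spread among libraries that may be technical only.

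Each library held 18622370 to 21002226 counted reads. All 14 acinar marker genes listed for a check of the cell type were in the table and none was at 0 in any library. Their summed normalised counts were 65903 to 68461 in the control and 34397 to 40791 in the CAF_CM libraries. Of the 12 tested, 6 were called lower (50%) and none higher, where 16.1% of all genes tested were lower and 18.3% higher. Ctrb1, Cela1 and Rbpjl made up most of the summed counts, with control means of 45083, 12701 and 5316. The other markers did not all go their way: Prss2 (0.31, limma adjusted p 0.0602) was above all controls in every CAF_CM library, and Ptf1a (0.15) and Cpa1 (0.12) overlapped. Prss2 and Ptf1a were called higher with a correction for length and GC content (adjusted p 0.00806 and 0.0392) and without CAF_CM 2 (0.00280 and 0.0361). Of 13 fibroblast markers 10 had a row and none of these was at 0. Their sums overlapped between control (3534 to 3736) and CAF_CM (3192 to 3675), with Col1a2 higher (log2 fold change 0.48, limma adjusted p 0.0299) and Dcn lower (-0.93, 0.0130) among the 8 tested. These 2 are 25% of the 8, where 34.4% of all genes tested were called. Col1a2 lost its call without any library but CAF_CM 3 (adjusted p 0.0621 to 0.0902), and Dcn lost its call without control 3 (0.0670). In bulk RNA, fewer cells of a type and less RNA per cell cannot be told apart. The part of the acinar marker differences in the results below was not tested.

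As background, the signal recognition particle (SRP) binds the signal sequence of a growing protein and brings the ribosome to its receptor on the ER membrane. The chain passes through the Sec61 channel, helped by the TRAP complex, while signal peptidase removes the signal sequence. Folded cargo then leaves at ER exit sites in COPII vesicles, whose coat is built by the GTPase Sar1, the inner Sec23/Sec24 layer and the outer Sec13/Sec31 cage. COPI vesicles, coated by coatomer, carry escaped ER proteins and p24 receptors (Tmed proteins) back from the Golgi. Acinar cells make large amounts of digestive enzymes and depend heavily on this pathway.

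Genes of this pathway are known targets of the unfolded protein response factors XBP1 and ATF6 and of the CREB3 family, which bind elements with an ACGTG or CCACG core. RefSeq promoter windows of GRCm38.p6, 250 bases before to 50 after the start, matched 52 of the 60 genes and gave 55 windows of 300 bases. ACGTG was found on either strand in 61.8% of these windows (34 of 55), against 19.6% of all 32851 windows and 25.0% of the 13457 windows of genes tested. CCACG was found in 63.6% (35 of 55), against 32.8% of all windows and 46.6% of those of genes tested. The longer TGACGTGG, which contains ACGTG and, on the other strand, CCACG, was in 4 of 55 windows (7.27%), against 0.676% of all windows and 0.825% of those of genes tested. The full ER stress response element, searched as its 2 blocks at their fixed spacing, was in 0 of 55 windows and in 0.119% of all windows. A match describes letters in a window and is not a binding site. The windows were not all independent: those of Srp54a, Srp54b and Srp54c share a stretch holding ACGTG, and Sec31a had multiple windows.

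The 4 windows with TGACGTGG belonged to 2 coatomer genes, Copb1 and Copb2, and 2 COPII genes, Sec23a and Sec24d, and are shown with that of the signal peptidase gene Spcs1, which had several CCACG matches. Each line runs 5′ to 3′ on the gene's strand from 120 bases before to 20 after the start, and capitals mark TGACGTGG or CCACG or their reverse complements. The stretches lie at chr7:114254661-114254800 on the minus strand (Copb1), chr9:98563611-98563750 on the plus strand (Copb2), chr12:59011998-59012137 on the minus strand (Sec23a), chr3:123267376-123267515 on the plus strand (Sec24d) and chr14:31001647-31001786 on the minus strand (Spcs1).
Copb1: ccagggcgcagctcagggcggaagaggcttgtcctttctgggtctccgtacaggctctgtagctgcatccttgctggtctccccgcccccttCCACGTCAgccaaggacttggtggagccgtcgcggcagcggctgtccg
Copb2: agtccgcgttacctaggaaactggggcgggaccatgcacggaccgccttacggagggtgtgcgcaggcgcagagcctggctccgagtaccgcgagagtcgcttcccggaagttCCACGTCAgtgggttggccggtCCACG
Sec23a: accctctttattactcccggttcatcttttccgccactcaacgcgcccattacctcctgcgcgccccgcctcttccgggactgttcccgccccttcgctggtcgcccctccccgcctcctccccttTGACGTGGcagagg
Sec24d: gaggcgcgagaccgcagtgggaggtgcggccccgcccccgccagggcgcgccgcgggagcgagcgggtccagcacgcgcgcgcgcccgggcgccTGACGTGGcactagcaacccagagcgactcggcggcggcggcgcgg
Spcs1: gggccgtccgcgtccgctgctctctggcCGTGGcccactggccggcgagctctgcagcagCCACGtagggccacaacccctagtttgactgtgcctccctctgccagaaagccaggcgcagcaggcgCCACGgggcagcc
The 8-letter match began 28 bases before the start in Copb1 and 7 before it in Copb2, both on the reverse strand, and 26 before the start in Sec24d and 6 after it in Sec23a, both forward. ACGTG was in 6 of 8 COPI windows, 11 of 15 COPII windows, 4 of 9 Tmed windows and 1 of 3 signal peptidase windows, and CCACG was in 6 of 8, 9 of 15, 8 of 9 and 3 of 3. By the direction of the mRNA, ACGTG was in 12 of 17 windows of genes that rose, 7 of 17 of genes that fell and 15 of 19 of genes that were not called. CCACG was in 9 of 17, 11 of 17 and 15 of 19.

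Values below are normalised counts, and log2 fold changes are of CAF_CM against control on the log2(value + 1) scale with adjusted p-values from limma over all 16169 genes tested, n = 3 libraries per group. A gene is called higher or lower when its Benjamini-Hochberg adjusted p is under 0.05. Of the 58 genes tested, 36 were called (62.1%), 16 higher (27.6%) and 20 lower (34.5%). Over all genes tested, 34.4% were called, 18.3% higher and 16.1% lower. The median log2 fold change of the 58 genes was -0.039 against 0.0046 over all genes. The changes were small: they ran from -0.66 in Sec11c to 0.32 in Sec22c. In 20 genes all CAF_CM libraries lay above all control libraries and in 24 below, where 24.8% and 22.9% of all genes tested did so. Together the 60 genes took 0.841% to 0.849% of the normalised counts in the control and 0.805% to 0.820% in the CAF_CM libraries.

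**Figure D1:**
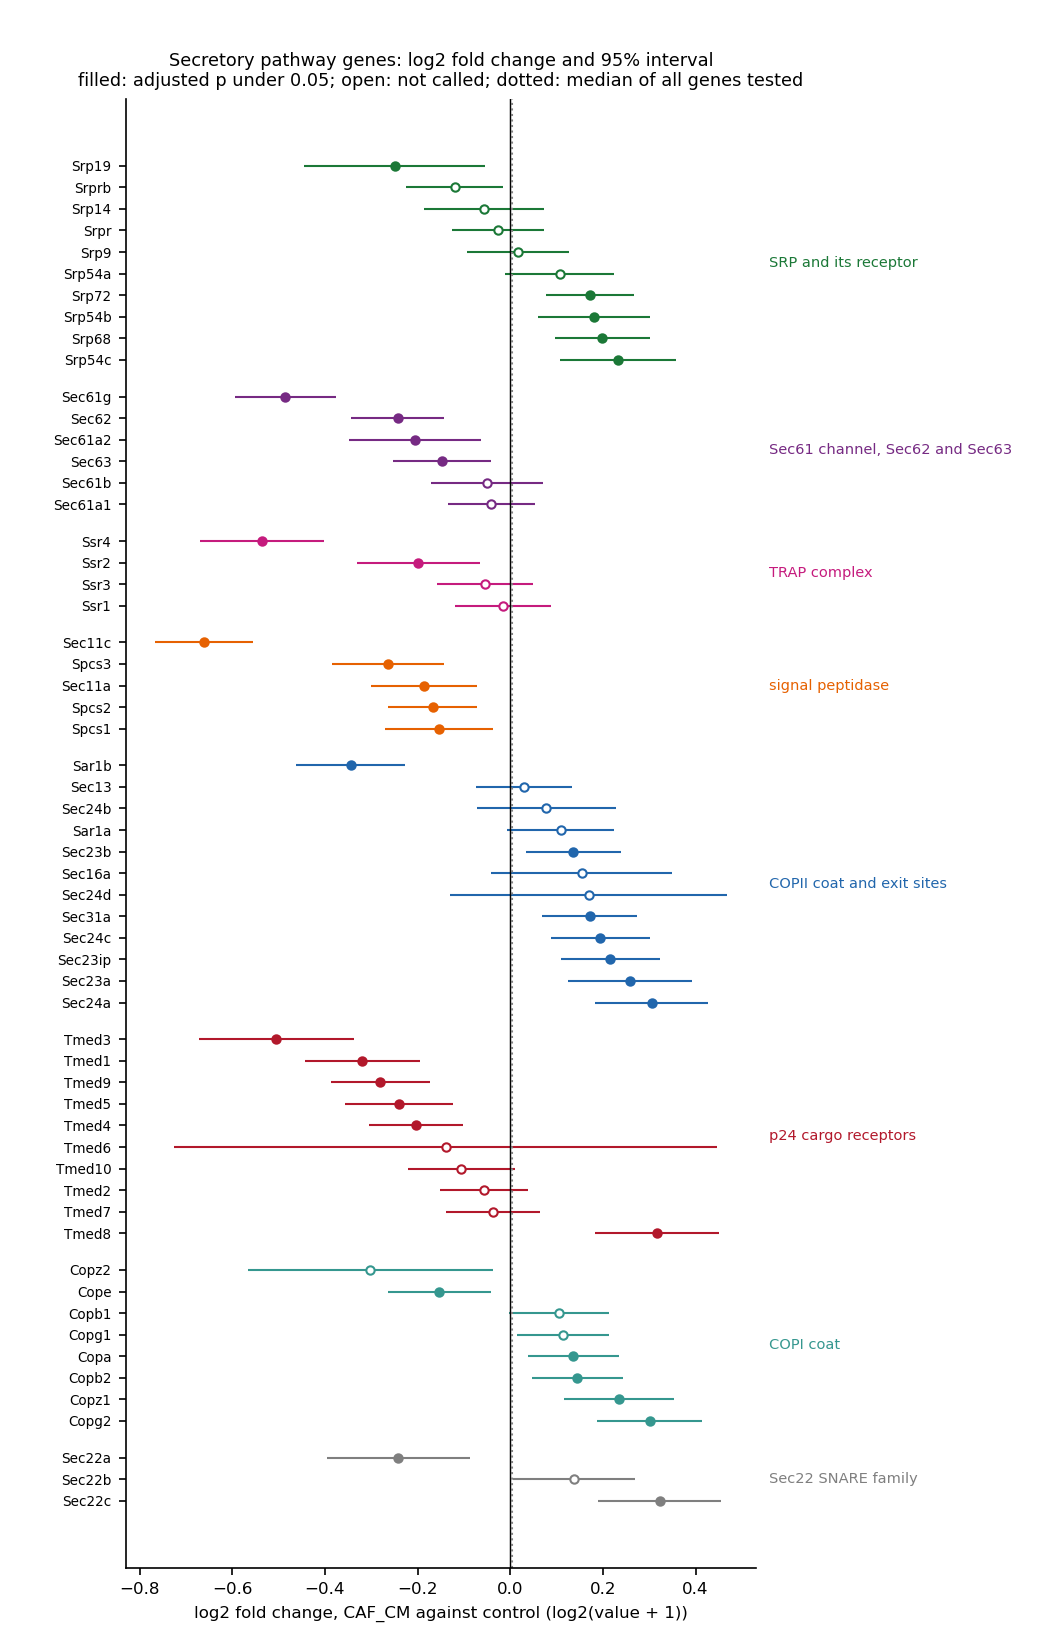
Log2 fold change (x axis, CAF_CM against control) with its 95% interval for the 58 genes tested, grouped by role. Filled points have an adjusted p under 0.05, open points do not, and the dotted line is the median of all genes tested; in the Sec61, TRAP and signal peptidase groups every filled point lies below 0, and in the COPI and COPII groups 10 of 12 lie above it.

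The direction of the calls varied with the role. Of the 15 genes of the Sec61 channel with Sec62 and Sec63, the TRAP complex and signal peptidase, 11 fell, none rose and 4 were not called, with a median log2 fold change of -0.19. Of the 20 tested genes of the COPI and COPII coats, 10 rose, 2 fell and 8 were not called, with a median of 0.14. These groupings across roles were made after the values were seen and carry no test. Leaving out 1 library moved the counts of called genes. Without control 1, 2 or 3 the higher genes of the whole set numbered 9, 12 and 10 and the lower 11, 12 and 12. Without CAF_CM 1, 2 or 3 they numbered 20, 17 and 12 higher and 22, 16 and 15 lower. No called gene was called in the other direction in any of these omissions.

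SRP components were mixed, with 4 of 10 genes of the particle and its receptor higher, 1 lower and 5 not called. Srp68 and Srp72 form the pair of proteins that holds the particle's RNA scaffold, and both rose. Srp68 had 2285, 2229 and 2254 in the control libraries and 2679, 2526 and 2564 in the CAF_CM libraries, and its log2 fold change was 0.20 (SE 0.0469, adjusted p 0.00731). Srp72 had 4309, 4372 and 4304 in the control libraries and 4956, 4763 and 4918 in the CAF_CM libraries, with a log2 fold change of 0.17 (SE 0.0437, adjusted p 0.0106). For both genes every CAF_CM library lay above every control library.

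Srp54 is the GTPase that binds the signal sequence, and the mouse carries it in near-identical copies, so reads may be split among them and each value is uncertain. Srp54c had 1715, 1680.3 and 1719 in the control libraries and 2164, 1894 and 1958 in the CAF_CM libraries (log2 fold change 0.23 with SE 0.0571, adjusted p 0.00916), without overlap. Srp54b was higher by 0.18 (adjusted p 0.0265), and Srp54a, at 0.11 with a 95% interval of -0.011 to 0.22 (adjusted p 0.149), was not called. The copies thus had estimates on the same side of 0.

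Srp19, which helps load Srp54 onto the particle's RNA, was the gene of this group that fell. It had 812, 799.8 and 748 in the control libraries and 773, 614 and 608 in the CAF_CM libraries, a log2 fold change of -0.25 (SE 0.0891, adjusted p 0.0487). CAF_CM 1 lay between the control values and only CAF_CM 2 and 3 were below all controls. Its call was lost when any library but CAF_CM 1 was left out (adjusted p 0.160, 0.141 and 0.0753 without control 1, 2 and 3, and 0.109 and 0.175 without CAF_CM 2 and 3) and with no filter on low values (0.0509). Srp9 and Srp14, the pair that slows elongation during targeting, were not called: Srp14, the highest of this group per transcript length, had 1487, 1506 and 1414 in the control libraries and 1518, 1351 and 1372 in the CAF_CM libraries, with an interval of -0.19 to 0.072. The receptor's subunits, Srpr (-0.027) and its membrane anchor Srprb (-0.12, adjusted p 0.0739), were not called, but Srprb passed without CAF_CM 1 (adjusted p 0.0247).

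Srp72 lost its call without control 1 or 3 (adjusted p 0.0530 and 0.0565). Srp54b lost it without control 1, 2 or 3 or CAF_CM 3 (adjusted p 0.114, 0.0795, 0.0708 and 0.0569). The group then had as few as 2 higher genes, without control 1 or 3, while Srp68 and Srp54c kept their calls in every alternative tried.

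In the translocation channel, 4 of 6 genes fell and none rose. Sec61g encodes the small gamma subunit that stands beside the pore-forming alpha subunit. It had 2255, 2159 and 2293 in the control libraries and 1637, 1611 and 1542 in the CAF_CM libraries, 1.40-fold lower in the CAF_CM group (log2 fold change -0.49 with SE 0.0501, 95% interval -0.59 to -0.38, adjusted p 7.25e-05). The highest CAF_CM value was well below the lowest control value.

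The other subunits of the channel did not share this size of difference. Sec61a1, the alpha subunit and the highest of the group per transcript length, had 8544, 8706 and 8669.8 in the control libraries and 8447, 8416 and 8331 in the CAF_CM libraries, with an interval of -0.13 to 0.053 (adjusted p 0.496). The beta subunit gene Sec61b had a log2 fold change of -0.050 and an interval of -0.17 to 0.071 (adjusted p 0.523). The intervals of both lie above the whole interval of Sec61g. The ratio of Sec61g to Sec61a1, computed after the values were seen, was 0.264, 0.248 and 0.265 in the control and 0.194, 0.191 and 0.185 in the CAF_CM libraries.

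Sec62 and Sec63 admit proteins that are imported after synthesis and open the channel together with the chaperone BiP. Sec62 had 2954, 3016 and 3013 in the control libraries and 2465, 2604 and 2522 in the CAF_CM libraries (log2 fold change -0.24 with SE 0.0459, adjusted p 0.00209), without overlap. Sec63 fell by 0.15 on the log2 scale (adjusted p 0.0343). Sec61a2, the less abundant alpha subunit gene, had 709.9, 756 and 753 in the control libraries and 666, 598 and 661 in the CAF_CM libraries (log2 fold change -0.21 with SE 0.0651, adjusted p 0.0306). Sec61g and Sec62 kept their calls in every alternative.

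Without control 1, 2 or 3 only these 2 of the channel genes were called. Sec63 then had an adjusted p of 0.0685, 0.137 and 0.135, and 0.110 without CAF_CM 3. Sec61a2 had 0.0562, 0.120 and 0.112, and 0.0640 without CAF_CM 2.

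The TRAP complex, which sits beside Sec61 and helps weak signal sequences enter, has 4 subunits, of which 2 fell and 2 were not called. Ssr4, the delta subunit, had 1625, 1547 and 1664 in the control libraries and 1195, 1046 and 1098 in the CAF_CM libraries, 1.45-fold lower (log2 fold change -0.54 with SE 0.0610, interval -0.67 to -0.40, adjusted p 1.19e-04). All 3 CAF_CM values were far below the control range. Ssr2, the beta subunit and the highest of all 58 genes per transcript length, had 5992, 5978 and 5927 in the control libraries and 5746, 4860.5 and 5028 in the CAF_CM libraries (log2 fold change -0.20, adjusted p 0.0258). Here CAF_CM 1 lay close to the controls and CAF_CM 2 and 3 well below them.

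Ssr3, the gamma subunit, had 11277, 11055 and 11042 in the control libraries and 10766, 11112 and 10275 in the CAF_CM libraries, and the groups overlapped (interval -0.16 to 0.049). Ssr1, the alpha subunit, had 7432, 7536 and 7758 in the control libraries and 7820.2, 7407 and 7264 in the CAF_CM libraries, again with overlap (interval -0.12 to 0.088). As with Sec61g, 1 subunit differed more than its partners. The ratio of Ssr4 to Ssr3 was chosen after the values were seen. It was 0.144, 0.140 and 0.151 in the control and 0.111, 0.0941 and 0.107 in the CAF_CM libraries. Ssr2 lost its call without control 1, 2 or 3 (adjusted p 0.0895, 0.0899 and 0.0768) and without CAF_CM 2 or 3 (0.0568 and 0.0886), which left Ssr4 as the called gene of the complex.

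All 5 genes of signal peptidase, the complex that cuts off signal sequences, were lower. Sec11c, 1 of its 2 alternative catalytic subunits, had 2405, 2433 and 2495 in the control libraries and 1512, 1523 and 1603 in the CAF_CM libraries. It was 1.58-fold lower (log2 fold change -0.66 with SE 0.0486, interval -0.77 to -0.55, adjusted p 1.12e-05), the largest change of the 58 genes in either direction. The other catalytic subunit gene, Sec11a, fell by 0.19 on the log2 scale (adjusted p 0.0175).

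The accessory subunits moved the same way by smaller amounts. Spcs3 had 1010.4, 1020.2 and 1077 in the control libraries and 865, 839 and 883 in the CAF_CM libraries (log2 fold change -0.26 with SE 0.0554, adjusted p 0.00383). Spcs2, the highest of the group per transcript length, had 5068, 4932 and 4905 in the control libraries and 4417, 4503 and 4357 in the CAF_CM libraries (log2 fold change -0.17 with SE 0.0439, adjusted p 0.0128). Neither gene had overlapping groups. Spcs1, whose promoter stretch is shown above, fell by 0.15 on the log2 scale (adjusted p 0.0446).

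Sec11c and Spcs3 were called in every alternative, and without control 1 or 2 they were the only called genes of this complex. Spcs2 then had adjusted p 0.0721 and 0.0588, Sec11a 0.0794 and 0.0607 (0.0664 without control 3), and Spcs1 0.120 and 0.0844 (0.182 without control 3, 0.0868 and 0.108 without CAF_CM 2 and 3).

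**Figure D2:**
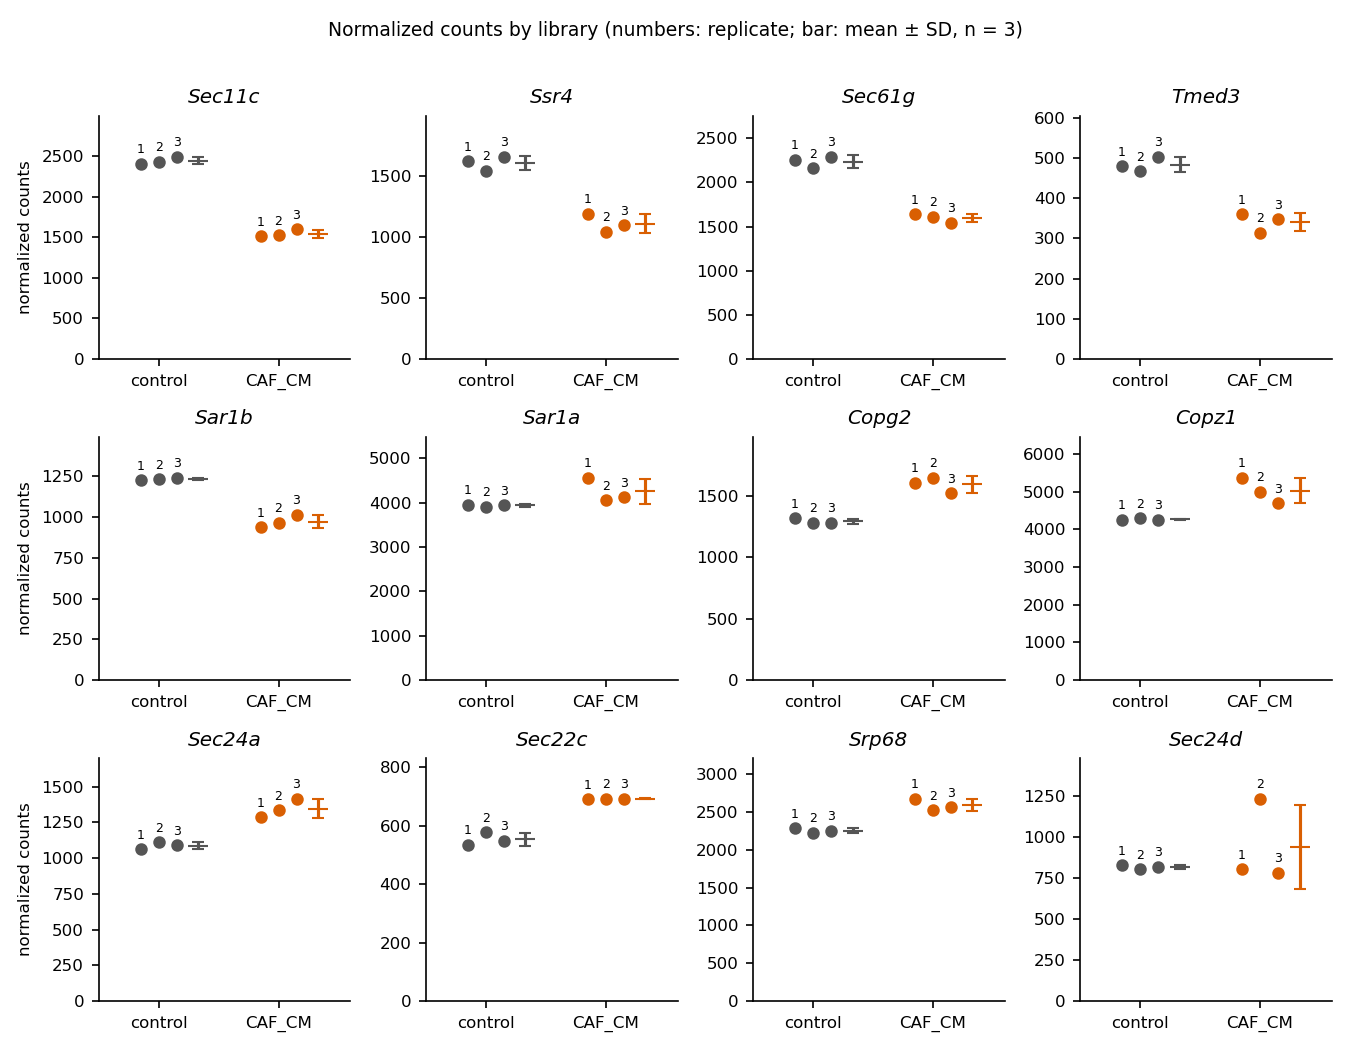
Normalised counts (y axis, from 0) of 12 genes in each of the 6 libraries, with replicate numbers, and the mean ± SD (n = 3) beside each group. Sec11c, Ssr4, Sec61g, Tmed3 and Sar1b were lower without overlap, Copg2, Copz1, Sec24a, Sec22c and Srp68 higher without overlap, and Sec24d was high in CAF_CM 2 alone.

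Among COPII genes 6 of the 12 tested rose, 1 fell and 5 were not called, with a median log2 fold change of 0.16. The gene that fell was Sar1b, 1 of the 2 genes for the GTPase that starts coat assembly. It had 1228, 1233 and 1243 in the control libraries and 937, 967 and 1016 in the CAF_CM libraries, 1.27-fold lower (log2 fold change -0.34 with SE 0.0535, interval -0.46 to -0.23, adjusted p 6.70e-04). Its partner gene Sar1a had 3961, 3913 and 3946 in the control libraries and 4571, 4064 and 4133 in the CAF_CM libraries, with every CAF_CM value above the controls but an interval of -0.0064 to 0.22 (adjusted p 0.132). Sar1b thus went down while the more abundant Sar1a showed no fall.

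Sec24 proteins select cargo. Sec24a had the largest log2 fold change of the COPII genes in this fit, but with a correction for length and GC content (0.17) it was below Sec23a (0.23), Sec23b (0.18) and Sec24c (0.18). It had 1060.5, 1111 and 1091 in the control libraries and 1284, 1334 and 1416 in the CAF_CM libraries (1.24-fold higher, log2 fold change 0.31 with SE 0.0556, adjusted p 0.00169). Sec24c was higher by 0.19 (adjusted p 0.0102). Sec24b had 1535, 1627 and 1607 in the control libraries and 1507, 1719.7 and 1822 in the CAF_CM libraries, and the groups overlapped (interval -0.071 to 0.23). Sec24d had 830.3, 805 and 821 in the control libraries and 804, 1237 and 784 in the CAF_CM libraries: 1 library, CAF_CM 2, was high and the other two were at or below the lowest control value (interval -0.13 to 0.47, adjusted p 0.369). Without CAF_CM 2 the log2 fold change of Sec24d was -0.044.

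The remaining called genes of the coat all rose. Sec23ip, a partner of Sec23 at exit sites, had 1642, 1712 and 1746 in the control libraries and 2005, 1987 and 1932 in the CAF_CM libraries (log2 fold change 0.22 with SE 0.0489, adjusted p 0.00576). Sec23 itself activates the GTPase of Sar1: Sec23a had 789, 856 and 858 in the control libraries and 948, 1034 and 1013 in the CAF_CM libraries (0.26 with SE 0.0610, adjusted p 0.00725), and Sec23b was higher by 0.14 (adjusted p 0.0429). In the outer cage Sec31a rose by 0.17 (adjusted p 0.0150). Its partner Sec13, the highest of this group per transcript length and also a part of the nuclear pore, had 3612, 3355 and 3430.0 in the control libraries and 3461, 3593 and 3554 in the CAF_CM libraries, with overlap (interval -0.075 to 0.13).

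Sec16a, the scaffold of exit sites, was not called (log2 fold change 0.15, adjusted p 0.205). It had 1522, 1582 and 1583 in the control libraries and 1460.0, 1944 and 1852 in the CAF_CM libraries: CAF_CM 1 lay below the controls and CAF_CM 2 and 3 above them. Without CAF_CM 1 it was higher, with an adjusted p of 3.10e-04, and so was Sec24b (0.0207). Calls were lost without control 1 for Sec31a, Sec24c and Sec23b (adjusted p 0.0923, 0.0567 and 0.122), leaving 3 higher genes, and without control 3 for Sec24c and Sec23b (0.0536 and 0.145), leaving 4. Sec23b was the least stable: it was also lost without control 2 or CAF_CM 3 (0.126 and 0.0802) and kept its call in 6 of 16 alternatives. Sar1b, Sec24a, Sec23ip and Sec23a kept theirs in all 16.

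Most Tmed genes encode p24 proteins, cargo receptors that cycle between ER and Golgi in COPII and COPI vesicles. Of the 10 Tmed genes tested, 5 were lower, 1 was higher and 4 were not called. Tmed3 had 479.7, 467 and 503 in the control libraries and 359, 314 and 348 in the CAF_CM libraries, 1.42-fold lower (log2 fold change -0.51 with SE 0.0762, adjusted p 5.59e-04). Tmed1, of the same gamma subfamily, had 892, 865 and 881 in the control libraries and 689.9, 693 and 732 in the CAF_CM libraries (-0.32 with SE 0.0564, adjusted p 0.00143). Tmed9, of the alpha subfamily, had 3317, 3154 and 3134 in the control libraries and 2732, 2613 and 2563 in the CAF_CM libraries (-0.28 with SE 0.0486, adjusted p 0.00129). In these 3 genes the groups were well separated. The same was seen in Tmed5 (-0.24, adjusted p 0.00520) and Tmed4 (-0.20, adjusted p 0.00616).

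The 2 members that form the core of p24 complexes were not called. Tmed2, the highest of the family per transcript length, had 6669, 6749 and 6777 in the control libraries and 6544, 6541 and 6344 in the CAF_CM libraries (interval -0.15 to 0.039). Tmed10 had 3619, 3574 and 3749 in the control libraries and 3562, 3433 and 3184 in the CAF_CM libraries (interval -0.22 to 0.0096, adjusted p 0.144). Tmed2 and Tmed10 had all CAF_CM values below all control values, yet by differences too small to pass, although Tmed10 passed without CAF_CM 1 (adjusted p 0.0209). Tmed7 (-0.037) was not called, and Tmed6, at 18.0 to 33.5 normalised counts, was too low for a firm estimate (interval -0.73 to 0.45). The higher gene was Tmed8, which is in this group by its symbol and is not an established p24 receptor. It had 789.8, 837 and 785 in the control libraries and 939, 1049.8 and 1017 in the CAF_CM libraries (log2 fold change 0.32 with SE 0.0615, adjusted p 0.00246). With the length and GC correction this was 0.17 (adjusted p 0.0239). The calls of the Tmed genes changed in no other omission of a library.

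Coatomer, the COPI coat, had 4 of 8 genes higher, 1 lower and 3 not called. Gamma-COP and zeta-COP belong to the adaptor-like inner part of the coat and each has 2 genes. Copg2, the less abundant gamma gene, had 1315, 1279 and 1279 in the control libraries and 1606, 1648 and 1519.6 in the CAF_CM libraries (1.23-fold higher, log2 fold change 0.30 with SE 0.0520, adjusted p 0.00127). Copz1, the main zeta gene, had 4254, 4291 and 4255 in the control libraries and 5379, 5004 and 4702 in the CAF_CM libraries (0.23 with SE 0.0538, adjusted p 0.00620). In both genes every CAF_CM value was above every control value. Copg1 had 6289, 6341 and 6258 in the control libraries and 6561, 6934 and 6958 in the CAF_CM libraries, without overlap but not called (interval 0.015 to 0.21, adjusted p 0.0711). Copz2, at low values, had 133, 139 and 115 in the control libraries and 107, 109.7 and 95.9 in the CAF_CM libraries (interval -0.57 to -0.038, adjusted p 0.0733). Copz2 was thus lower in each CAF_CM library than in each control without passing the test.

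The outer cage of coatomer is made of alpha-COP, beta'-COP and epsilon-COP. Copa, alpha-COP and the highest of the group per transcript length, had 8209, 8206 and 8553 in the control libraries and 8933, 9269 and 9242 in the CAF_CM libraries (0.14, adjusted p 0.0360). Copb2, beta'-COP, had 3188, 3346 and 3245 in the control libraries and 3614, 3573 and 3626 in the CAF_CM libraries (0.15 with SE 0.0446, adjusted p 0.0266). Both rose without overlap, while epsilon-COP went down. Cope, the gene of this coat that fell, had 2105, 2152 and 2020.1 in the control libraries and 1953, 1869.6 and 1821 in the CAF_CM libraries (-0.15, adjusted p 0.0363). The ratio of Cope to Copa, chosen after the values were seen, was 0.256, 0.262 and 0.236 in the control and 0.219, 0.202 and 0.197 in the CAF_CM libraries. Copb1, beta-COP of the inner part, had 3692, 3493 and 3628 in the control libraries and 3722, 4049.6 and 3869.7 in the CAF_CM libraries (interval -0.0022 to 0.21), higher without overlap but not called.

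The outer-cage calls rested on all control libraries. Without control 1, 2 or 3 the adjusted p was 0.135, 0.158 and 0.0738 for Copa, 0.121, 0.0656 and 0.102 for Copb2, and 0.121, 0.162 and 0.0628 for Cope. Without CAF_CM 3 it was 0.0817, 0.0634 and 0.110, and in each of these 4 omissions Copg2 and Copz1 were the called coatomer genes. Without CAF_CM 1, Copg1 and Copb1 were also called higher (adjusted p 0.00629 and 0.0195). DESeq2 on the recovered reads left Copa, Copb2 and Cope uncalled (adjusted p 0.0653, 0.0669 and 0.0533).

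Sec22b, a SNARE of ER and Golgi membranes, and its relatives Sec22a and Sec22c did not move together. Sec22c had 535, 577 and 549.5 in the control libraries and 691, 693 and 693 in the CAF_CM libraries (log2 fold change 0.32 with SE 0.0604, adjusted p 0.00200), higher without overlap. Sec22a had 538, 498 and 541 in the control libraries and 420.1, 452 and 461 in the CAF_CM libraries (-0.24 with SE 0.0702, adjusted p 0.0206), lower without overlap. Sec22b, the most abundant of them per transcript length, had 1456, 1433 and 1402 in the control libraries and 1713, 1501 and 1512 in the CAF_CM libraries (interval 0.0051 to 0.27, adjusted p 0.1004), above all controls but not called. The call of Sec22a was lost without control 1 or 3 (adjusted p 0.0892 and 0.0907), and Sec22b was called without CAF_CM 2 (0.0446).

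Of the 60 genes, 2 were not tested. Sec31b, a second gene for the outer COPII cage, had 10.6, 14.3 and 7.33 in the control libraries and 2.06, 7.83 and 5.69 in the CAF_CM libraries. Sec1 had 4.82, 4.08 and 3.14 in the control libraries and 5.15, 5.88 and 7.59 in the CAF_CM libraries: it matched by its symbol but encodes a fucosyltransferase of blood group antigens and no part of this machinery. Both lay near or below the minimum value.

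For 12 pairs of genes of like or joined function the ratio within each library was compared, which no scaling of a whole library can alter. In 8 pairs the groups did not overlap. Of all single genes tested, 24.8% lay higher and 22.9% lower without overlap. No such share was computed for ratios of other gene pairs, so the 8 of 12 cannot be judged against one. With 3 libraries against 3 the exact two-sided permutation test cannot give less than p = 0.1, and the adjusted p over the 12 pairs was 0.15 for each of these 8, so no pair can pass.

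The ratio of Sar1a to Sar1b was 3.23, 3.17 and 3.17 in the control and 4.88, 4.20 and 4.07 in the CAF_CM libraries, a difference of 0.45 on the log2 scale. Sec11a to Sec11c was 0.819, 0.790 and 0.779 in the control and 1.19, 1.07 and 1.06 in the CAF_CM libraries, a difference of 0.48. These ratios are of counts not scaled for length, so they do not show which gene was more abundant. Per length of the longest annotated transcript, Sec11a was above Sec11c in every library. The transcript expressed may be another, so this order is uncertain. In the control libraries Sec11a had 72.9, 70.3 and 71.1 against 65.2, 65.3 and 66.9 for Sec11c. In the CAF_CM libraries it had 66.2, 63.1 and 65.7 against 40.8, 43.3 and 45.3. Copz1 to Copz2 was 32.0, 30.9 and 37.0 in the control and 50.2, 45.6 and 49.0 in the CAF_CM libraries, a difference of 0.54. In all 3 pairs the CAF_CM ratios lay above all control ratios. Copg1 to Copg2 shifted the other way, from 4.78, 4.96 and 4.89 to 4.08, 4.21 and 4.58 (log2 difference -0.19). Sec24a to Sec24b rose to 0.852, 0.776 and 0.777 from 0.691, 0.683 and 0.679, and Sec61a1 to Sec61a2 to 12.7, 14.1 and 12.6 from 12.04, 11.52 and 11.52.

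Srpr to Srprb differed by 0.093 without overlap. Sec31a to Sec31b differed by 1.18, on few counts of Sec31b. The groups overlapped for Sec23a to Sec23b (log2 difference 0.12, exact permutation p = 0.3), Sec24c to Sec24d (0.026, exact p = 1), Copb1 to Copb2 (-0.039, exact p = 0.7) and Tmed2 to Tmed10 (0.050, exact p = 0.3). Within the coats the ratios were thus apart for some pairs and overlapping for others.

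**Figure D3:**
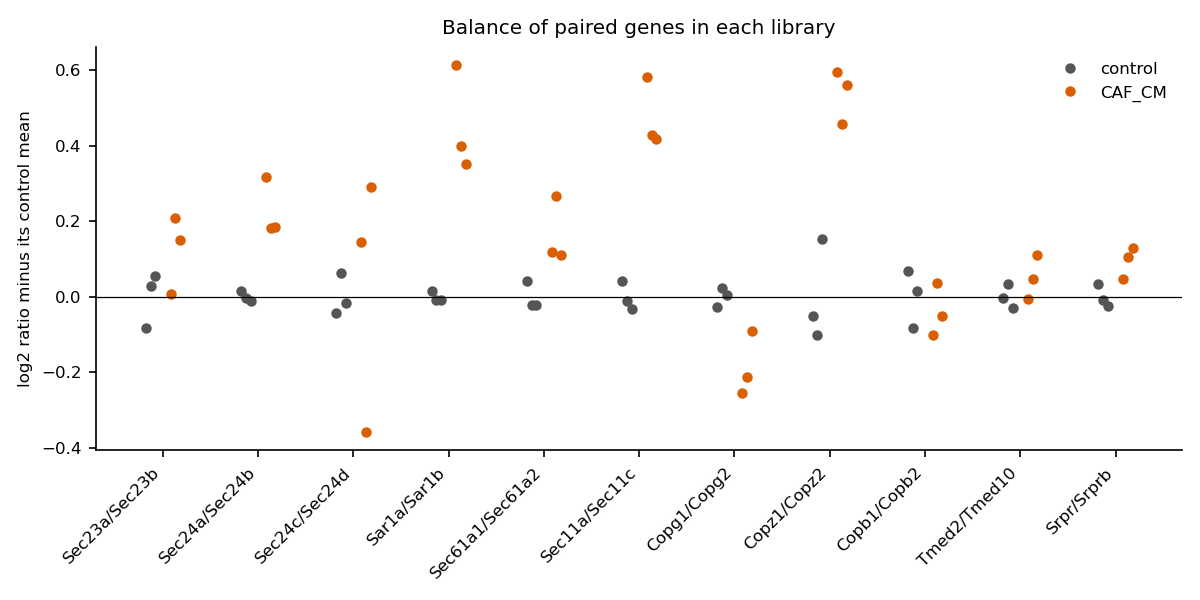
Log2 ratio of the members of 11 gene pairs in each library, minus the control mean of that pair (y axis), with control and CAF_CM libraries side by side. The CAF_CM points of Sar1a/Sar1b, Sec11a/Sec11c and Copz1/Copz2 lie 0.45, 0.48 and 0.54 above the control mean on average; Sec31a/Sec31b is left out for its low counts.

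Levels of different genes were compared as normalised count per kb of the longest annotated transcript, scaled so that each library sums to the same total. That transcript may not be the one expressed, so the order is approximate. In the control libraries the highest levels on this scale were those of Ssr2 (539 ± 6.01, mean ± SD, n = 3), Ssr3 (404 ± 7.36) and Tmed2 (349 ± 0.834), followed by Sec61a1 (293 ± 1.27), Sec61b (251 ± 13.7) and Sec13 (233 ± 10.3). The lowest tested were Tmed6 (3.28 ± 0.943), Sec22c (10.4 ± 0.367), Tmed8 (11.7 ± 0.393) and Copz2 (13.3 ± 1.29). Sec22c and Tmed8, which rose, were thus among the least abundant of the set.

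Coatomer subunits join in equal numbers, but the 2 gamma genes share 1 place in the coat, as do the 2 zeta genes. Among the set's subunits with 1 gene, control means ran from 194 (Copa) to 81.7 (Cope). The mRNA levels of all 8 coatomer genes on this scale spanned more, with the less abundant Copg2 and Copz2 lowest. In the control libraries they ran from Copa (194 ± 4.04) and Copz1 (188 ± 1.15) through Copg1 (126 ± 1.12), Copb1 (116 ± 3.80), Copb2 (115 ± 2.37) and Cope (81.7 ± 2.77) to Copg2 (35.0 ± 0.779) and Copz2 (13.3 ± 1.29). In the CAF_CM libraries Copa was at 220.4 ± 10.7, Copz1 at 229 ± 10.5, Cope at 76.0 ± 1.26 and Copg2 at 44.7 ± 2.18. In the control libraries Copb1 and Copb2 overlapped on this scale, while every Copa value was above every Copz1 value; in the order over the whole set, Sec61b and Sec13 overlapped.

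**Figure D4:**
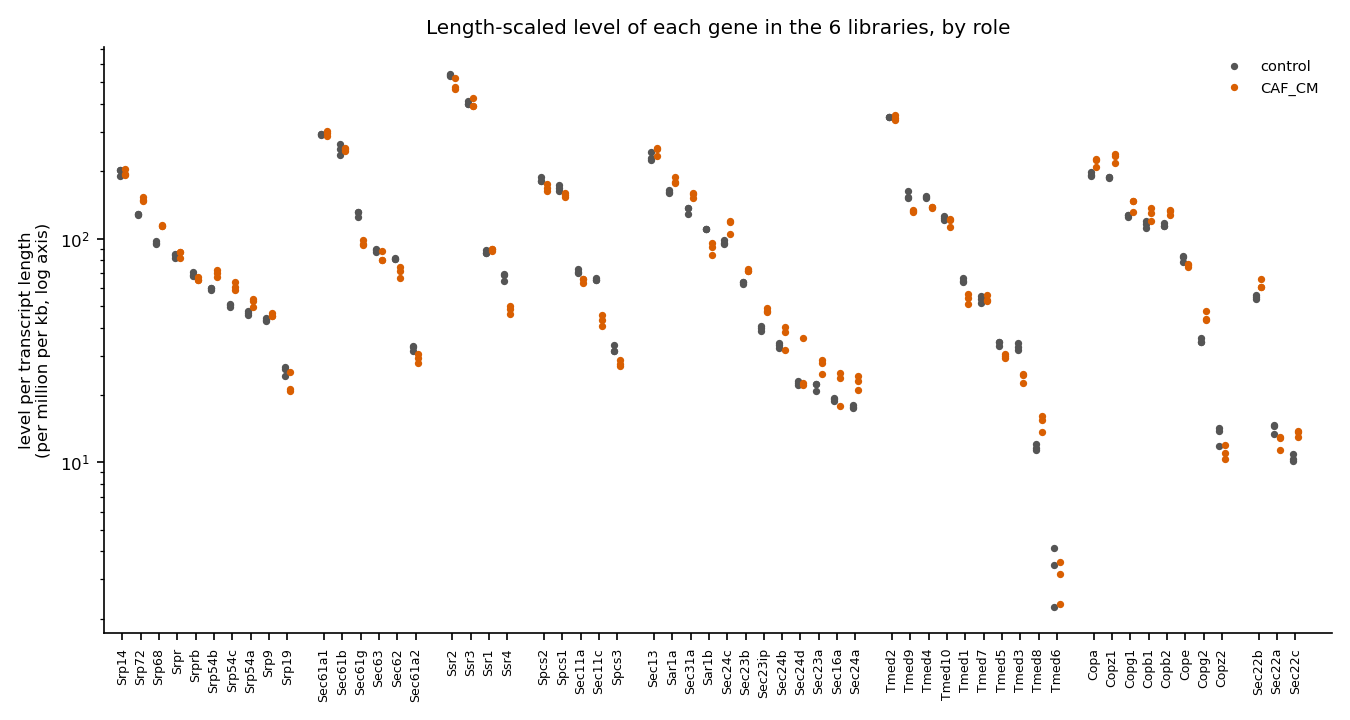
Level per transcript length (y axis, in parts of a fixed library total per kb, log axis) of the 58 genes tested in every control and CAF_CM library, ordered within each role by the control mean. Levels span from 3.28 (Tmed6) to 539 (Ssr2) in the control mean, and within most genes the groups lie close together compared with that range.

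Transcript length moved with the direction of the change. Over the 58 genes, Spearman's rho between log2 fold change and length was 0.50, against 0.21 over the 15773 tested genes with a length; genes share the same libraries, so these are descriptions. Genes that rose had a median length of 4035 nt, those that fell 2660.5 nt and those not called 3169 nt. Of the 8 genes of 1000 to 2000 nt 6 fell and none rose, and of the 9 of 4000 to 6000 nt 6 rose and none fell. In the same bands 18.7% and 15.1% of all genes fell and 8.92% and 26.8% rose.

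Median lengths of the roles were 4168.5 nt for COPII, 3460 for SRP, 3198 for COPI, 2927 for signal peptidase, 2810 for the channel, 2762.5 for TRAP and 2140 for the Tmed genes. In a fit with a smooth correction for length and GC content 17 of the 58 genes were higher and 16 lower, beside 22.7% and 15.8% of all genes with a length. Of the channel, TRAP and signal peptidase genes 9 of 15 were then lower and none higher, and of the coat genes 10 of 20 were higher and 1 lower. Sec11c (-0.68), Ssr4 (-0.44), Sec61g (-0.42), Tmed3 (-0.41), Sar1b (-0.29), Copz1 (0.33), Srp68 (0.31), Copg2 (0.27) and Sec24a (0.17) kept their calls, with these corrected log2 fold changes. The correction moved 4 called genes by over 1.5 times without ending their calls: Srp68 and Sec63 (-0.27) away from 0, Sec24a and Tmed8 (0.17) towards it.

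Calls lost in that fit were those of Ssr2 (adjusted p 0.158), Spcs1 (0.176), Sec61a2 (0.0818), Cope (0.371), Copa (0.0637), Tmed4 (0.0516) and Tmed5 (0.360). Calls gained were Sar1a (0.17, adjusted p 0.0103) and Sec22b (0.18, 0.0178), higher, and Ssr1 (-0.19, 0.0460) and Tmed7 (-0.19, 0.0254), lower. Thus Sar1a and Sar1b were called in opposite directions after the correction.

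**Figure D5:**
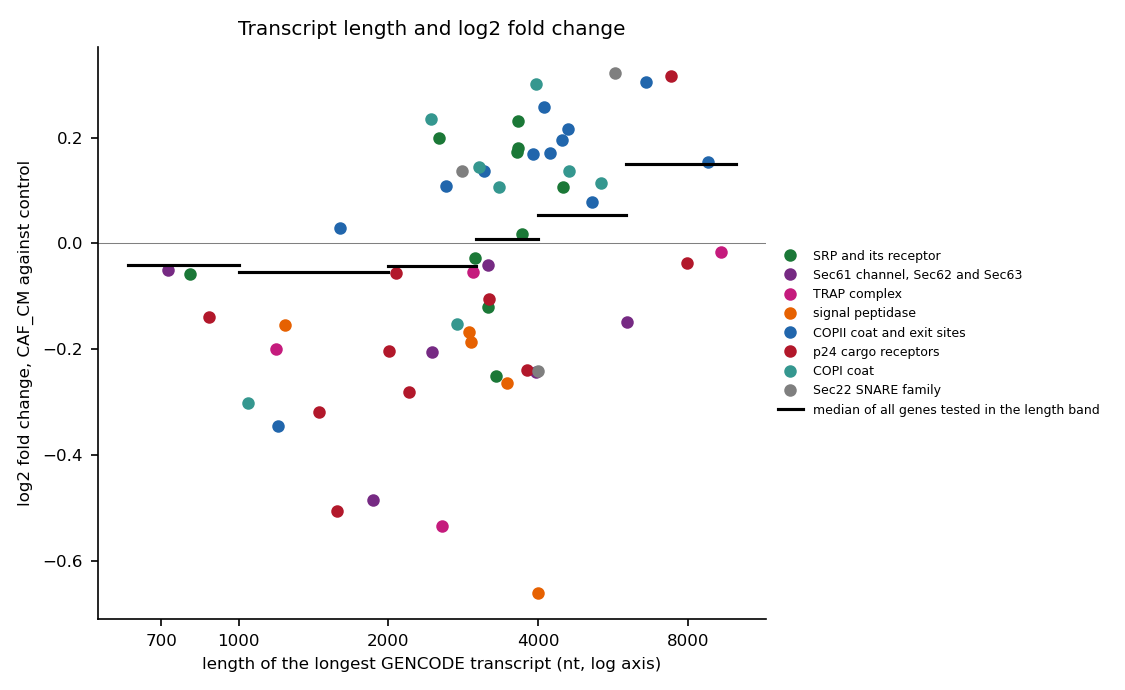
Log2 fold change (y axis) of the 58 genes against the length of the longest transcript (x axis, log axis), coloured by role, with black lines at the median of all genes tested in each length band. Short genes lie mostly below 0 and those of 4000 to 6000 nt mostly above, and Sec11c, Ssr4 and Sec61g lie far below the median of their band.

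Scaling each library by its total shifted the median of all genes to -0.041 and with it the split of calls. Then 12 of the 58 genes were higher and 23 lower, beside 13.8% and 19.7% of all genes. Copa, Copb2, Sec23b and Srp54b were no longer called (adjusted p 0.132, 0.0992, 0.154 and 0.0732), and Copz2, Srprb and Tmed10 were called lower (0.0460, 0.0184 and 0.0407). No called gene changed direction. DESeq2 also left the calls of Sec61a2, Spcs1 and Sec23b out (adjusted p 0.0537, 0.0643 and 0.128).

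Genes around this machinery were taken from lists of the pathway. Over all genes tested, 16.1% were called lower and 18.3% higher. Of 11 genes of the oligosaccharyltransferase, which attaches sugars to chains in the channel, 7 were lower, none higher and 4 not called (median -0.17). Its subunit gene Rpn2 had 14772, 14666 and 14622 in the control libraries and 11782, 11129 and 10943 in the CAF_CM libraries (log2 fold change -0.38, adjusted p 1.91e-04). Ddost (-0.29, 7749, 7650.4 and 7517 against 6513, 6109 and 6100.2) and Rpn1 (-0.21, 8478, 8587 and 8735 against 7539, 7501 and 7268) were lower too. Of 14 translocon partners and lumenal helpers 9 were lower, none higher and 5 not called (median -0.22), led by the protein disulfide isomerase genes Pdia3 (-0.27, 9886, 9847 and 9983 against 8669, 7969.9 and 8016) and Pdia4 (-0.25, 3198, 3143 and 3361 against 2739.9, 2657 and 2734) and the chaperone gene Calr (-0.22, 12443, 12796 and 12814 against 11274, 10645 and 10688). Corrected for length and GC content, Ddost was at -0.17 and Calr at -0.12, still called lower.

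Other routes insert membrane proteins through the ER membrane complex and the tail-anchor factors. Of these 18 genes 6 were lower (33.3%), 2 higher (11.1%) and 10 not called. Of all genes tested, 16.1% were lower and 18.3% higher. Tmem208, an ER membrane protein of an SRP-independent targeting route, had 641, 625 and 656 in the control libraries and 426, 406 and 459 in the CAF_CM libraries (log2 fold change -0.57, adjusted p 1.53e-04). Tmco1 (-0.36, 2416, 2301 and 2238 against 1926, 1768 and 1739) and the ER membrane complex gene Emc3 (-0.27, 2432, 2393 and 2413 against 2061, 2027 and 1905) were also lower (Emc3 at -0.17 with the length and GC correction). The median of this list was -0.030.

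On the vesicle side, 7 of 17 exit-site regulators and cargo receptors were lower (41.2%), 1 was higher (5.88%) and 9 were not called (median -0.17). Of all genes tested, 16.1% were lower and 18.3% higher. The cargo receptor genes Ergic3 (-0.35, 3936, 3974 and 4020.4 against 3322, 3025 and 3033), Ergic2 (-0.33, 1263, 1274 and 1346 against 968, 1048 and 1071) and Lman2l (-0.25, 1189.5, 1247 and 1227 against 959, 1009 and 1116) led the list. These are membrane proteins that ride in the vesicles, as the p24 receptors do. Not all genes of this kind were called lower: Ergic1 was the gene called higher (0.16, limma adjusted p 0.0232). Lman1 (-0.12), Surf4 (-0.061) and Lman2 (-0.019) were not called. Lman1 was still lower without overlap, and it was called lower with the length and GC correction (-0.19, limma adjusted p 0.00322). Lman2l lost its call without control 2 (limma adjusted p 0.0560).

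The list of COPI regulators, which also holds the coat gene Arcn1, had 5 of 11 genes higher (45.5%). None was lower and 6 were not called (median 0.16). Of all genes tested, 18.3% were higher and 16.1% lower. ARF GTPases recruit coatomer to membranes: Arf1 had 11133, 10788 and 10911 in the control libraries and 14129, 13788 and 13262 in the CAF_CM libraries (log2 fold change 0.33, adjusted p 4.08e-04) and Arf3 5349.5, 5739.6 and 5812 in the control libraries and 7736, 7470.4 and 6919 in the CAF_CM libraries (0.39, adjusted p 4.06e-04). Arcn1, which encodes delta-COP and completes the coat but is not named as a Cop gene, had 4129, 4311 and 4367 in the control libraries and 5113, 5120.0 and 5041 in the CAF_CM libraries (0.25, adjusted p 0.00140). With it, counted here in addition to its place in the list of regulators, the coatomer genes called higher numbered 5 of 9. Of 20 SNAREs and tethers between ER and Golgi, 4 were higher (20%) and 4 lower (20%), shares near the 18.3% and 16.1% of all genes tested. Among them Ykt6 (0.31, 2985, 3048 and 3002 against 3893, 3627 and 3674) and Gosr2 (0.28, 1876, 1773 and 1809.7 against 2256, 2145 and 2239) rose and Bnip1 (-0.61, 342, 357 and 348 against 206, 259 and 225) fell.

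Of 9 genes for transcription factors of the secretory pathway, Creb3 alone was called (11.1%), where 34.4% of all genes tested were called. It had 1097, 1007 and 1039 in the control libraries and 855, 807 and 761 in the CAF_CM libraries (log2 fold change -0.38, adjusted p 0.00101). Xbp1 (-0.036, interval -0.17 to 0.094) and Atf6 (0.080, interval -0.071 to 0.23) were not called, but Atf6 was called higher without CAF_CM 1 (adjusted p 0.00650). These are levels of mRNA and do not measure the splicing of Xbp1 or the cleavage of ATF6 and CREB3 on which their activity depends.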

How the data were processed

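TruSeq libraries of total RNA (RNA integrity number 10 for all, per the labels' protocols) were deposited by the authors as 1 table of 20764 rows and 6 libraries. Its values are a normalised signal: read counts that the authors divided by 1 factor per library. FastQC, DESeq2 and the human build hg19 stand, with no role, in the submitters' processing notes; the aligner, counter and mouse build are not given in the sources used here. All values (100%) were a whole multiple of the worth of 1 read (0.949 to 1.05, within 0.001 reads), so reads were recovered, and the lowest row total was 10. The 168 rows without a symbol (0.153% to 0.261% of reads) were left out.

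The main test was limma 3.58.1 with a variance trend on log2(value + 1), for genes at 10 or above in 3 or more libraries, with Benjamini-Hochberg adjustment over 16169 genes and a threshold of 0.05 (R 4.3.3). It was tested on simulated data, with planted changes larger than most of those called in this set. That test does not cover changes of their size. Alternatives were edgeR 4.0.16 (quasi-likelihood) and DESeq2 1.42.0 on recovered reads (edgeR called 2888 genes higher and 2682 lower), library totals, TMM factors, pseudocounts of 0.5 and 5, no filter, a minimum of 50, a replicate block, a spline (5 degrees of freedom) for length and GC content, and leaving out each library. Lengths came from GENCODE (mouse) transcripts for 97.55% of genes tested. Promoters came from RefSeq.

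Members, gene lists and tests were chosen with earlier results of these data known. Values in each library are given for up to 3 called members of each role with the lowest adjusted p, all members of groups of 4 or fewer, the member with the highest level per length, the paired genes, and up to 3 called genes of each other list by adjusted p; library values of Srp19, Sec16a and Cope beyond this rule, and the subunit ratios, were chosen after values were seen. Same-numbered libraries of the 2 groups are not linked by the labels.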

Additional observations from a re-analysis of the deposited data

How the results depend on the processing

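Of the 36 called genes, 18 (9 higher, 9 lower) kept their call in all 16 alternatives, and no called gene changed direction in any. The counts moved most when 1 library was left out: genes of the set called higher ran from 9 (without control 1) to 20 (without CAF_CM 1) and lower from 11 to 22 (the same libraries), and over all genes 1868 to 3509 higher and 1659 to 2943 lower, again lowest without control 1 and highest without CAF_CM 1, each with 1 library fewer. The set had 13 higher and 17 lower genes with DESeq2, 15 and 20 with edgeR or TMM factors, 16 and 20 with the other pseudocounts or a minimum of 50, and 15 and 18 with no filter. Some estimates that were not called changed sign: Sec13 was at -0.016 and Srp9 at -0.028 with library totals; with the length and GC correction Sec61a1 was at 0.032, Srp14 at 0.010, Srpr at 0.038, Ssr3 at 0.011, Tmed2 at 0.018, Sec61b at 0.038, Xbp1 at 0.080 and Atf6 at -0.067; Ssr1 ran from -0.046 to 0.0069 as single libraries were left out, above 0 without control 3 (0.0018) or CAF_CM 3; Srp9 ran from -0.0036 (without CAF_CM 1) to 0.042, Tmed6 from -0.37 to 0.042 (above 0 without control 3 or CAF_CM 3), Xbp1 from -0.10 to 0.020 (without CAF_CM 2) and Cpa1 from -0.049 (without CAF_CM 2) to 0.27; Sec24d ran from -0.044 (without CAF_CM 2) to 0.28; and the log2 balance of Sec24c and Sec24d ran from -0.11 (without CAF_CM 3; -0.034 without CAF_CM 1) to 0.22. The cause was not tested. With a replicate block 15 genes of the set were higher and 20 lower (3166 and 2755 over all genes); deviations of same-numbered libraries correlated at 0.070, 0.029 and 0.030, too weakly to pair them, although each library correlated best with its own number. At this depth only Tmed6, Sec1 and Sec31b rested on few reads.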
